A study of Mus musculus with 12 samples.

Results

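The laminins, nidogens and basement membrane proteoglycans were represented by 10 genes of the 19937 tested: the laminin alpha chains Lama2, Lama4 and Lama5, the beta chains Lamb1 and Lamb2, the gamma chain Lamc1, the nidogens Nid1 and Nid2, and the heparan sulfate proteoglycans Hspg2 (perlecan) and Agrn (agrin). They were taken by name, as probe sets whose only gene symbol was that of a member, and each of the 10 had 1 such probe set. All were measured in total RNA of mouse heart on 12 arrays, 4 from control mice, 4 from IDH2 R140Q mutant mice and 4 from IDH2 R172K mutant mice. IDH2 is the mitochondrial isocitrate dehydrogenase, and both mutant forms are known to make D-2-hydroxyglutarate, the metabolite in the title of the series. All mice were of mixed background, from the strains C57BL/6, 129/sv and Balb/c. Mutant mice were given 2 mg of 4-hydroxytamoxifen over 3 days when they were 5 weeks old, and the labels name no such treatment for controls, so drug and mutation cannot be told apart in a comparison with control. The age at dissection, the sex, the promoter behind the mutant allele and the cells that carry it were not stated in the labels. The labels number the replicates of a group without saying that each is a separate animal, so the p-values measure the spread between these arrays.

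A basement membrane is the thin matrix sheet that surrounds each cardiomyocyte and underlies the endothelium of vessels. Laminins are secreted as trimers of an alpha, a beta and a gamma chain, which join into a network at the cell surface through receptors such as dystroglycan and the laminin-binding integrins. Nidogens bind the gamma chain and type IV collagen and so link the laminin and collagen networks, while perlecan and agrin carry heparan sulfate chains that hold growth factors. In striated muscle the main alpha chain is that of Lama2, whose loss causes a congenital muscular dystrophy, and the chains of Lama4 and Lama5 are those of vessel walls.

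The genes did not move as a block. Among the laminin chains, Lama5 fell in both mutants and Lamb2 fell in R172K hearts, whereas Nid1 rose in R172K hearts, and the largest of these differences was 1.52-fold. The sequences shown here are upstream stretches of these 3 genes, because they are the members that passed the test and they moved in opposite directions. They come from RefSeq's windows on GRCm38.p6, 250 bases before to 50 after each transcript start, and are cut to the bases that lie before the annotated gene. Windows matched 7 of the 10 members and not Lama4, Lamc1 and Nid2. The Lama5 stretch is chr2:180225905-180226109 on the minus strand, that of Lamb2 is chr9:108479612-108479846 on the plus strand and that of Nid1 is chr13:13437352-13437601 on the plus strand. Capitals mark the GC box, GGGCGG on either strand, which is the motif of Sp family factors.
Lama5: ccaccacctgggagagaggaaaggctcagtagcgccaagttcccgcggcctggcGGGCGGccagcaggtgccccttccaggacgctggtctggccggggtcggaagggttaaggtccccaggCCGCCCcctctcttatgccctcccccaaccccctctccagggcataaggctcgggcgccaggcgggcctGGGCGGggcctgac
Lamb2: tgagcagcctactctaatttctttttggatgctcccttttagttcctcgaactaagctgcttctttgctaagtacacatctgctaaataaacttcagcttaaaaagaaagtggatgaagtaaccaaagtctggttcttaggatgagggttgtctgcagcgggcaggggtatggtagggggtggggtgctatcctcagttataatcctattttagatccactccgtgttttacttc
Nid1: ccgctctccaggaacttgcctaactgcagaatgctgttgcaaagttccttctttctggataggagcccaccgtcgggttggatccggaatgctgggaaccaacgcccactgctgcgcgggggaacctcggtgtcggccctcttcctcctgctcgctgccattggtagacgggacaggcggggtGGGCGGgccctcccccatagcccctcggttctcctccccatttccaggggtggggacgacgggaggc

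The GC box occurred 3 times in the Lama5 stretch and 1 time in that of Nid1, while the Lamb2 stretch held none. Over all 32851 windows of 300 bases, 35.7% held it. The Lama5 window was 72.7% G and C, that of Nid1 64.7% and that of Lamb2 44.0%, against a median of 52.7% over all windows. Among the other members' windows, the motif was found 5 times for Hspg2, 12 times and 2 times for the 2 windows of Agrn, 2 times for Lamb1 and 1 time for Lama2. The CCAAT box, searched as CCAAT on either strand, stood 1 time each in the windows of Lamb1 and Nid1 and occurred in 37.4% of all windows. The letters of the TEAD element GGAATG stood 1 time in the Nid1 window (14.7% of all windows). Neither the TATA box letters TATAAA (13.6% of all windows) nor the AP-1 letters TGACTCA (5.2%) were in any of the 8 windows of members. Such matches describe letters in a window and not bound sites.

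Heart muscle RNA made up these samples as labelled: the cardiac myosin heavy chain Myh6 lay between 12.84 and 13.42 on the log2 intensity scale and the ventricular light chain Myl2 between 12.39 and 13.36. Intensities are the authors' RMA values, and array medians ran from 74.78 to 78.04 units. Some arrays stood apart. The summed intensity of 9 atrial markers was 30638 in control 3 and 22167 in R172K 3, against at most 15542 elsewhere, and that of 7 lung epithelial markers was 5151 in R140Q 4 and at most 394 elsewhere. The quality weight was 0.365 for R172K 3 and 0.366 for R172K 4, against 0.901 or more for the other 10 arrays. Differences are log2 differences of intensity with limma's moderated standard error (SE), and a gene passed at a Benjamini-Hochberg adjusted p under 0.05 over all 19937 genes.

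**Figure D1:**
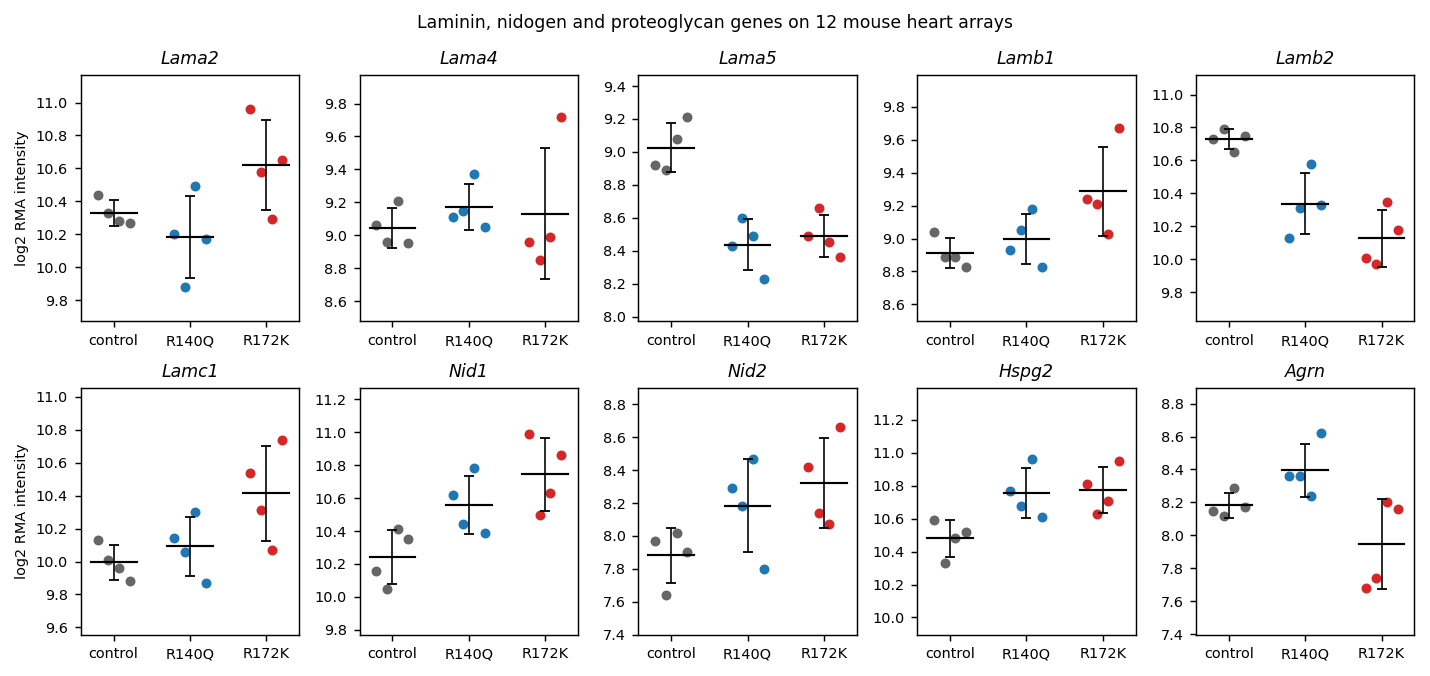
Log2 RMA intensity (vertical axes, each spanning the same range) of the 10 members on the 4 control, 4 R140Q and 4 R172K arrays, with replicates 1 to 4 from left to right in a group, the group mean as a bar and the SD as whiskers. For Lama5 all 8 mutant arrays (8.23 to 8.66) lie below all 4 control arrays (8.89 to 9.21), and for Lamb2 they lie between 9.97 and 10.58, below the lowest control array at 10.65.

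Lama5, the most broadly expressed alpha chain of epithelial and vascular basement membranes, was lower in both mutants. Its log2 intensity in control replicates 1 to 4 was 8.92, 8.89, 9.08 and 9.21. It was 8.43, 8.60, 8.49 and 8.23 in the R140Q replicates, and 8.49, 8.66, 8.45 and 8.36 in the R172K replicates. Every mutant array was thus below every control array, while the mutant groups overlapped each other. The gene fell by 0.59 ± 0.10 (SE) in R140Q hearts (limma adjusted p = 0.0119) and by 0.54 ± 0.10 in R172K hearts (1.45-fold lower, adjusted p = 0.00541). These 2 comparisons use the same 4 control arrays. The R172K call was kept in all 24 alternatives. The R140Q difference was -0.50 (adjusted p = 0.0580) without control 3, R172K 3 and R140Q 4 together, and -0.56 (adjusted p = 0.156) with the atrial light chain gene Myl7 as a covariate. Myl7 was itself low on every R140Q array, at 5.23 to 6.04 against 6.18 to 12.49 in controls and 7.43 to 11.36 in R172K hearts, so that covariate moves with the group.

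Lama2, the alpha chain of the muscle fibre surface, did not pass in any comparison. Controls were at 10.44, 10.33, 10.28 and 10.27, whereas the R140Q arrays were at 10.20, 9.88, 10.49 and 10.17 and the R172K arrays at 10.96, 10.58, 10.29 and 10.65. In 3 of 4 R140Q arrays the gene was below all controls, and in 3 of 4 R172K arrays it was above them. The differences from control were -0.15 ± 0.14 (SE, limma adjusted p = 0.673) with R140Q and 0.29 ± 0.14 (adjusted p = 0.214) with R172K. Leaving out R172K 3 gave 0.40 (adjusted p = 0.0496) for R172K.

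Lama4, the alpha chain found with Lama5 in vessel walls and whose absence is known to disturb capillaries, had overlapping values in all groups. It lay between 8.95 and 9.21 in controls and between 9.05 and 9.37 in R140Q hearts. In R172K hearts 3 arrays were at 8.96, 8.85 and 8.99 and R172K 4 was at 9.72. The differences from control were 0.12 ± 0.16 (SE, limma adjusted p = 0.774) with R140Q and 0.09 ± 0.16 (adjusted p = 0.795) with R172K, and without R172K 4 the latter was -0.11 (adjusted p = 0.523).

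Lamb2, the beta chain of the neuromuscular junction, kidney filter and mature muscle basement membrane, was lower in R172K hearts. Control arrays lay close together, at 10.73, 10.79, 10.65 and 10.75. The R140Q arrays were at 10.13, 10.31, 10.58 and 10.33, and the R172K arrays at 10.01, 9.97, 10.35 and 10.18. As with Lama5, no mutant array reached the control range. Lamb2 fell by 0.61 ± 0.10 (SE) in R172K hearts (1.52-fold lower, limma adjusted p = 0.00382), a call kept in all 24 alternatives. In R140Q hearts its difference was -0.40 ± 0.10 (adjusted p = 0.0614), which did not pass. It passed without R172K 3 (adjusted p = 0.0301) or R172K 4 (0.0490), arrays that enter that comparison through the shared estimate of the spread alone, and with the 8 arrays of the comparison alone (0.0317).

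Lamb1, the beta chain of most embryonic and vascular laminins, did not share that decrease. It was at 9.04, 8.89, 8.89 and 8.83 in controls, 8.93, 9.05, 9.18 and 8.83 in R140Q hearts and 9.24, 9.21, 9.03 and 9.67 in R172K hearts. Of the R172K arrays 3 lay above all controls. The difference was 0.09 ± 0.12 (SE, limma adjusted p = 0.798) with R140Q and 0.38 ± 0.12 (adjusted p = 0.0588) with R172K. The latter was 0.47 (adjusted p = 0.0149) without R172K 3 and 0.25 (adjusted p = 0.110) without R172K 4.

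Lamc1, the gamma chain that most laminin trimers share and that nidogens bind, had a pattern close to that of Lamb1. Its values were 10.13, 10.01, 9.96 and 9.88 in controls, 10.14, 10.06, 10.30 and 9.87 in R140Q hearts and 10.54, 10.31, 10.07 and 10.74 in R172K hearts. Again 3 of 4 R172K arrays were above the control range and R172K 3 was inside it. The differences were 0.10 ± 0.13 (SE, limma adjusted p = 0.786) with R140Q and 0.42 ± 0.13 (adjusted p = 0.0544) with R172K, which became 0.54 (adjusted p = 0.00709) without R172K 3 and 0.31 (adjusted p = 0.127) without R172K 4.

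Nid1, the main nidogen of adult tissues, was higher in R172K hearts. Its log2 intensity was 10.16, 10.05, 10.41 and 10.35 in controls and 10.62, 10.44, 10.78 and 10.39 in R140Q hearts. The R172K arrays were at 10.99, 10.50, 10.63 and 10.86, all above the control range. Nid1 rose by 0.50 ± 0.12 (SE) in R172K hearts (1.42-fold, limma adjusted p = 0.0199), whereas the R140Q difference of 0.32 ± 0.12 did not pass (adjusted p = 0.207). The R172K call ended without control 1 (adjusted p = 0.0570), control 2 (0.0644) or R172K 1 (0.0662).

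Nid2, the second nidogen, which can stand in for Nid1 in many basement membranes, followed it from array to array, with a Pearson correlation of 0.89 over the 12 arrays that describes both group and array differences. It was at 7.97, 7.64, 8.02 and 7.90 in controls, at 8.29, 8.18, 8.47 and 7.80 in R140Q hearts and at 8.42, 8.14, 8.07 and 8.66 in R172K hearts. All R172K arrays and 3 of 4 R140Q arrays were above the control range. Neither the R140Q difference of 0.30 ± 0.15 (SE, limma adjusted p = 0.353) nor the R172K difference of 0.44 ± 0.15 (adjusted p = 0.0802) passed. Leaving out R172K 3 gave an adjusted p of 0.0362 for R172K.

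Perlecan (Hspg2), the large proteoglycan of vessel and muscle basement membranes, was above the control range on every mutant array but by a small amount. It was at 10.59, 10.33, 10.48 and 10.52 in controls, 10.77, 10.68, 10.96 and 10.61 in R140Q hearts and 10.81, 10.63, 10.71 and 10.95 in R172K hearts. The differences were 0.27 ± 0.09 (SE, limma adjusted p = 0.142) with R140Q and 0.30 ± 0.09 (adjusted p = 0.0536) with R172K, and neither passed. The latter passed without R140Q 3 (adjusted p = 0.0420), R172K 2 (0.0497) or R172K 3 (0.0445).

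Agrin (Agrn), known as the organiser of acetylcholine receptors at the neuromuscular junction and a ligand of dystroglycan, had mutant means on opposite sides of the control mean, as did Lama2, but with the signs the other way round. It was at 8.15, 8.12, 8.29 and 8.17 in controls, at 8.36, 8.36, 8.24 and 8.62 in R140Q hearts and at 7.68, 7.74, 8.20 and 8.16 in R172K hearts. R172K 1 and R172K 2 were below all other arrays, while R172K 3 and R172K 4 were within the control range. The differences from control were 0.21 ± 0.12 (SE, limma adjusted p = 0.412) with R140Q and -0.24 ± 0.12 (adjusted p = 0.241) with R172K. The latter passed in 1 of 24 alternatives, the fit with array weights (-0.38, limma adjusted p = 0.0208). Those weights were low for R172K 3 (0.365) and R172K 4 (0.366), the R172K arrays within the control range. With single arrays left out in turn it passed in 0 of 12 fits, and it was -0.15 without R172K 1.

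**Figure D2:**
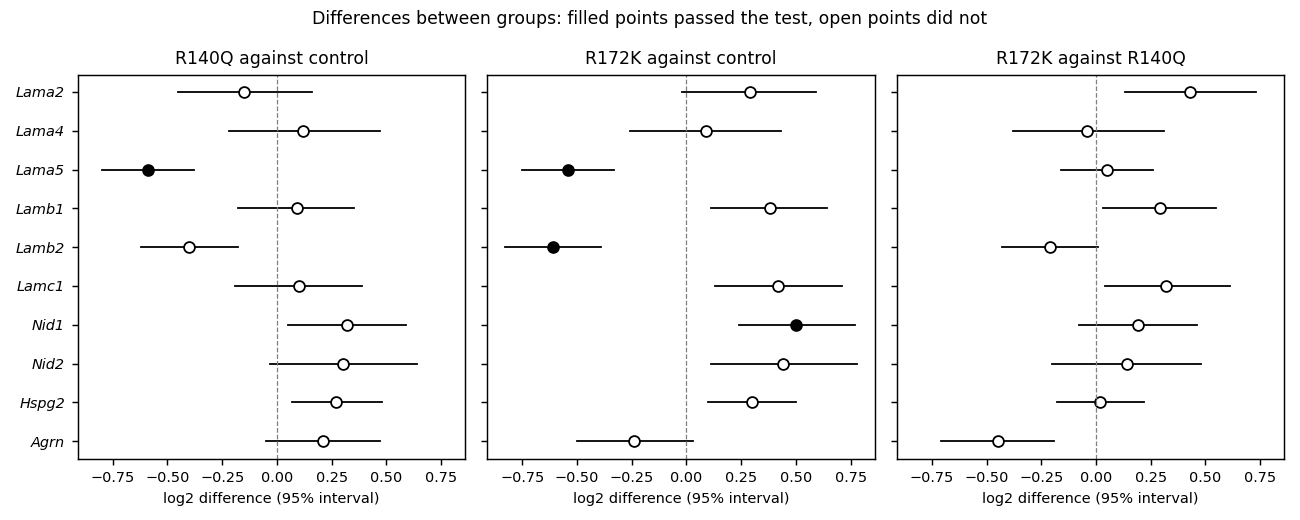
Log2 differences of the 10 members (points) with 95% intervals (lines) from the limma fit, for R140Q minus control, R172K minus control and R172K minus R140Q. Filled points mark the calls: Lama5 at -0.59 in R140Q hearts, and Lama5 at -0.54, Lamb2 at -0.61 and Nid1 at 0.50 in R172K hearts; in the contrast of the mutants all points are open.

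Counted over the 10 members, 1 was lower and 0 higher in R140Q hearts at the limma threshold, where 1.12% of all genes were lower and 1.08% higher. At an unadjusted p under 0.05 the counts were 2 lower (Lama5, Lamb2; 8.24% of all genes) and 2 higher (Nid1, Hspg2; 8.79% of all genes). In R172K hearts 2 members were lower, against 6.78% of all genes, and 1 was higher, against 6.23%. At an unadjusted p under 0.05 the same 2 were lower there (12.9% of all genes) and 5 were higher, namely Lamb1, Lamc1, Nid1, Nid2 and Hspg2 (13.6% of all genes). The groups did not overlap for 3 of 10 members in R140Q hearts (14.8% of all genes) and for 5 of 10 in R172K hearts (16.2%). The median difference of the members was 0.11 in R140Q and 0.29 in R172K hearts, beside medians of 0.00 and -0.00 over all genes, and 7 of 10 differences were positive in each.

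The direct contrast of R172K with R140Q hearts called 0 of 10 members in either direction by limma (0.487% of all genes were higher and 0.998% lower), and 3 higher and 1 lower at an unadjusted p under 0.05 (7.47% and 8.86% of all genes). Agrn was the 1 member whose mutant groups did not overlap (7.72% of all genes), with a difference of -0.45 ± 0.12 (SE, limma adjusted p = 0.0843). It passed without R172K 3 (adjusted p = 0.0184) and in 2 of 24 alternatives in all, over which the difference ran from -0.64 to -0.36. The highest Agrn value, 8.62, was on R140Q 4, the array with the high sum of lung epithelial markers (5151). Lama2 had the largest positive difference, 0.43 ± 0.14 (adjusted p = 0.139). The differences of Lamc1 (0.32 ± 0.13, adjusted p = 0.245) and Lamb1 (0.29 ± 0.12, adjusted p = 0.254) had the same sign. Without R172K 3, Lama2 (adjusted p = 0.0267) and Lamc1 (0.0419) passed as well. For Lama5 the mutants differed by 0.05, with a 95% interval from -0.16 to 0.26, and for Hspg2 by 0.02, with an interval from -0.18 to 0.22. For Lamb2 the interval ran from -0.43 to 0.01, so the data do not show whether its decrease was of like size in both mutants.

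Related chains were also compared within each array, as the difference of their log2 intensities, for 5 pairs in 3 comparisons. Such a difference has no meaning as a ratio of transcripts, but its change shows whether the chains moved unequally. Lamb1 minus Lamb2 was -1.70, -1.90, -1.76 and -1.92 in controls, -1.20, -1.26, -1.40 and -1.49 in R140Q hearts and -0.76, -0.76, -1.32 and -0.50 in R172K hearts. All 8 mutant arrays were above all 4 controls. The shift was 0.48 in R140Q hearts (exact permutation p = 0.0286, two-sided, adjusted p = 0.107 over the 15 tests) and 0.98 in R172K hearts (exact permutation p = 0.0286, adjusted p = 0.107). With 4 arrays against 4, 0.0286 is the smallest p these 70 regroupings allow, and 0 of the 15 tests passed after adjustment, against 4 at an unadjusted exact p under 0.05.

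Lama5 minus Lama2 was lower in R172K hearts (-2.47 to -1.84) than in controls (-1.52 to -1.06), a shift of -0.83 (exact permutation p = 0.0286, adjusted p = 0.107). In R140Q hearts the shift was -0.44 and the groups overlapped (exact permutation p = 0.0857, adjusted p = 0.184). Agrn minus Hspg2 was -2.44, -2.20, -2.20 and -2.36 in controls and -3.13, -2.89, -2.51 and -2.79 in R172K hearts, a shift of -0.53 (exact permutation p = 0.0286, adjusted p = 0.107). In R140Q hearts that pair shifted by -0.06, with values from -2.71 to -1.99 (exact permutation p = 0.714, adjusted p = 0.824). The nidogens kept nearly the same distance in all groups, with a mean of -2.36 in control hearts and changes in the mutants of -0.02 and -0.06 that were smaller than the SD of 0.11 among controls. Lama4 minus Lama2 shifted by 0.27 in R140Q (exact permutation p = 0.114) and -0.20 in R172K hearts (p = 0.514). Between R172K and R140Q hearts the groups of every pair overlapped. The shifts were 0.50 for Lamb1 minus Lamb2, -0.47 for Agrn minus Hspg2 and for Lama4 minus Lama2, -0.38 for Lama5 minus Lama2 and -0.05 for the nidogens.

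**Figure D3:**
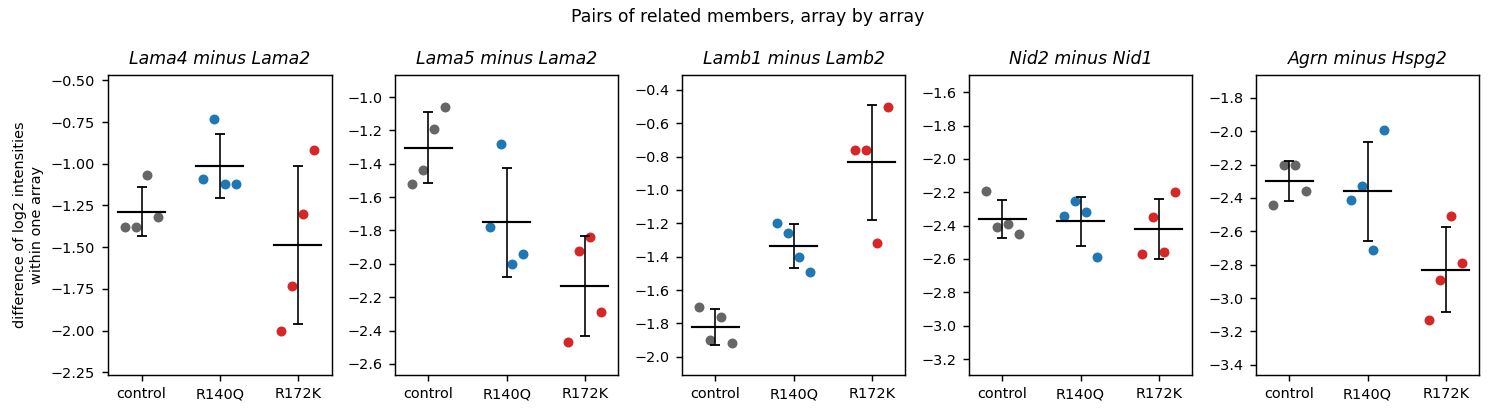
Difference of log2 intensities of 2 members on the same array (vertical axes) for 5 pairs, with 1 point per array, the group mean as a bar and the SD as whiskers. Lamb1 minus Lamb2 moves from between -1.92 and -1.70 in controls to between -1.49 and -1.20 in R140Q and between -1.32 and -0.50 in R172K hearts, while Nid2 minus Nid1 stays between -2.59 and -2.19 on all 12 arrays.

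Within the groups, single arrays carried several members at once. R140Q 3 was the highest R140Q array for 8 of 10 members, with Lama5 and Agrn as the exceptions, and R140Q 4 was the lowest for 7. R172K 4 was the highest R172K array for Lama4, Lamb1, Lamc1, Nid2 and Hspg2, and R172K 3 was the lowest for Lama2, Lamb1, Lamc1 and Nid2. After each group's mean was taken out, Lamb1 and Lamc1 had a Pearson correlation of 0.91 over the 12 arrays and Nid2 and Hspg2 one of 0.90. Lama5 and Lamb2 had one of 0.70 with the group means left in and -0.20 with them taken out. These correlations describe 12 arrays that share 3 groups and one normalization.

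Cell type markers moved with the groups, and in RNA of tissue more cells of a type and more RNA per cell cannot be told apart. The summed intensity of 12 endothelial markers, led by Pecam1 and Cdh5, was 11672 to 12226 in control, 14268 to 15054 in R140Q and 12446 to 15016 in R172K hearts, with 3 of 12 higher in R140Q and 2 of 12 in R172K hearts. In R140Q hearts Cdh5 passed (0.45, limma adjusted p = 0.0168) and Pecam1 did not (0.20, adjusted p = 0.281). In R172K hearts neither passed (Pecam1 0.19, adjusted p = 0.206, and Cdh5 0.16, adjusted p = 0.213), with 11 of 12 differences positive. Lama5, an alpha chain of endothelial basement membranes, was lower in both mutants, and its relation to the endothelial sum was not tested. The sum of 12 fibroblast markers, led by Pdgfra and Dcn, was 12278 to 16990 in control, 12880 to 19034 in R140Q and 15484 to 28553 in R172K hearts. In R172K hearts 6 of 12 were higher, namely Pdgfra, Col1a1, Col1a2, Col3a1, Mfap5 and Postn. Dcn was not among them (log2 difference 0.10, limma adjusted p = 0.535). Of the 12 differences 10 were positive, and those of Dpt (-0.35) and Gsn (-0.32) were negative. Among the R172K arrays the fibroblast sum was highest in R172K 4 (28553) and lowest in R172K 3 (15484), as were Lamb1, Lamc1 and Nid2. This was not particular to fibroblast markers. The same 2 arrays were highest and lowest for macrophage markers (9392 and 3507) and, the other way round, for cardiomyocyte markers (86016 and 107543). The sum of 12 cardiomyocyte markers was 115214 to 121020 in control and lower on all arrays of R140Q (104658 to 111658) and R172K hearts (86016 to 107543), and 7 of 12 were lower in R172K hearts. The 12 pericyte and smooth muscle markers, led by Pdgfrb and Rgs5, summed to 11670 to 13233 in control, 12231 to 13726 in R140Q and 11397 to 13600 in R172K hearts. In R172K hearts 3 of these 12 were higher (Pdgfrb by 0.53, Rgs5 by 0.29 and Mcam by 1.01) and 1 was lower (Abcc9, log2 difference -1.11). The 12 macrophage markers, led by Cd68 and Csf1r, summed to 3246 to 4919, 4047 to 4870 and 3507 to 9392 in the same order, with R172K 4 the highest and 2 of 12 higher in R172K hearts. The 9 atrial markers, led by Myl7 and Myl4, summed to 6298 to 30638 in control, 1509 to 10702 in R140Q and 11795 to 22167 in R172K hearts. In R140Q hearts all 9 had a negative difference from control, with a median of -0.90, of which limma called 0 and 5 had an unadjusted p under 0.05. Myl7 differed by -3.52 ± 1.08 (SE, limma adjusted p = 0.109) and Myl4 by -2.34 ± 0.76 (adjusted p = 0.129). In R172K against R140Q hearts all 9 differences were positive, with a median of 0.98, and Myl4 was called (3.52 ± 0.76, adjusted p = 0.0458). The part of these markers in the differences of the members was not tested.

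The 10 epicardial and mesothelial markers, led by Msln and Upk3b, summed to 790 to 1225 in control, 742 to 977 in R140Q and 1099 to 1721 in R172K hearts, where 2 of 10 were higher. The 6 measured Schwann cell markers summed to at most 3611 and the 8 skeletal muscle markers to at most 1235 on any array, with the defining skeletal myosins Myh4 and Myh1 between 4.55 and 5.22 in log2. The 6 measured adipocyte markers summed to 4171 to 4568 in control, 4217 to 4874 in R140Q and 4253 to 6224 in R172K hearts. No Schwann cell, skeletal muscle or adipocyte marker passed in a comparison with control.

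The partners of these proteins were followed in lists written from general knowledge. Of 4 other laminin chains measured (Lama1, Lama3, Lamb3 and Lamc3), limma called 0 in any comparison, and 0 reached an unadjusted p under 0.05. Among 8 basement membrane collagens, Col4a1 and Col4a2, the chains of the ubiquitous type IV collagen that nidogens bind, rose in both mutants, by 0.93 ± 0.14 (SE) and 0.91 ± 0.12 in R140Q hearts (limma adjusted p = 0.00545 and 0.00472) and by 0.99 ± 0.14 and 1.01 ± 0.12 in R172K hearts (adjusted p = 0.00192 and 0.00115). The other 6 did not pass, and the median of the list was 0.24 in R140Q and 0.04 in R172K hearts. With Myl7 as a covariate, which moves with the group, the R140Q differences of Col4a1 and Col4a2 were 0.90 and 0.78 and did not pass (adjusted p = 0.107 for both).

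Of 15 other proteins that associate with basement membranes, limma called 0 in R140Q hearts, where 3 were higher and 1 lower at an unadjusted p under 0.05. In R172K hearts fibulin 2 (Fbln2), a binding partner of laminin and nidogen, rose by 1.29 ± 0.29 (SE, limma adjusted p = 0.0128). The collagen-binding protein Sparc rose by 0.67 ± 0.17 (adjusted p = 0.0232), and fibulin 1 (Fbln1) fell by 0.66 ± 0.16 (adjusted p = 0.0204). The Sparc call ended without R172K 1 (adjusted p = 0.0640), control 1 (0.0601) or control 2 (0.0655), and that of Fbln1 without R172K 1 (0.0603), R172K 2 (0.0585) or control 4 (0.0517). At an unadjusted p under 0.05, 3 of the 15 were higher and 3 lower in R172K hearts (13.6% and 12.9% of all genes). The median of the list was 0.11 in R140Q and -0.02 in R172K hearts.

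Receptors for laminin, agrin and perlecan numbered 15. Itga6, the alpha subunit of laminin-binding integrins in endothelium and epithelium, rose by 0.93 ± 0.12 (SE) in R140Q (limma adjusted p = 0.00394) and 0.53 ± 0.12 in R172K hearts (adjusted p = 0.0144). With Myl7 as a covariate, which moves with the group, the R140Q difference was 0.99 and did not pass (adjusted p = 0.0622). Bcam, a receptor that binds the alpha chain of Lama5, rose by 0.81 ± 0.14 in R172K hearts (adjusted p = 0.00434), with 0.18 ± 0.14 in R140Q hearts (adjusted p = 0.578), and the mutants differed by 0.63 ± 0.14 (adjusted p = 0.0485), a call lost without any 1 of 10 arrays (adjusted p up to 0.157). Its R172K increase over control, opposite in sign to the change of Lama5, was kept in all 24 alternatives.

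Itga1, an integrin subunit that binds collagen and laminin, rose by 0.63 ± 0.11 (SE) in R140Q hearts (limma adjusted p = 0.0184). Itga1 lost that call without R140Q 1 (0.0553), R140Q 3 (0.0631), control 1 (0.0650) or control 3 (0.0514), and with Myl7 as a covariate (difference 0.73, adjusted p = 0.107). It was 0.51 ± 0.11 below R140Q in R172K hearts (log2 difference -0.51, adjusted p = 0.0492), which passed without 2 of 12 single arrays only (adjusted p up to 0.159). The agrin receptor gene Lrp4 was lower, by 0.53 ± 0.09 in R140Q (log2 difference -0.53, adjusted p = 0.0161) and 0.32 ± 0.09 in R172K hearts (log2 difference -0.32, adjusted p = 0.0420). The R140Q call of Lrp4 ended without R140Q 1 (0.0528) or control 1 (0.0613), and with Myl7 as a covariate (difference -0.51, adjusted p = 0.171). The R172K call of Lrp4 ended without 8 of 12 single arrays (adjusted p up to 0.120). Among receptors of the muscle fibre surface, the dystroglycan gene Dag1 differed from control by -0.13 ± 0.06 with R140Q (adjusted p = 0.277) and -0.11 ± 0.06 with R172K (adjusted p = 0.261). The integrin subunit gene Itga7 differed by -0.42 ± 0.11 in R140Q (adjusted p = 0.0592) and -0.05 ± 0.11 in R172K hearts (adjusted p = 0.835).

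Enzymes that build the sugars of these proteins mostly did not pass. Of 7 measured genes for the laminin-binding glycan of dystroglycan, limma called 0 in R140Q and 1 in R172K hearts. At an unadjusted p under 0.05, 0 were higher and 2 lower in each mutant. The gene called in R172K hearts was the O-mannosyltransferase gene Pomt1. It fell by 0.52 ± 0.12 (SE, limma adjusted p = 0.0160), and the adjusted p was 0.0520 without control 2. Of 15 heparan sulfate enzymes, limma called 0 in R140Q hearts, and 0 reached an unadjusted p under 0.05. In R172K hearts the xylosyltransferase gene Xylt1, which starts the chains on perlecan and agrin, rose by 0.69 ± 0.13 (adjusted p = 0.00545). The sulfotransferase gene Hs6st1 rose by 0.35 ± 0.11 (adjusted p = 0.0476), a call lost without any 1 of 11 arrays (adjusted p up to 0.125). At an unadjusted p under 0.05, 5 of the 15 were higher in R172K hearts and 0 lower (13.6% and 12.9% of all genes). The medians of the heparan sulfate list were 0.04 in R140Q and 0.16 in R172K hearts.

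**Figure D4:**
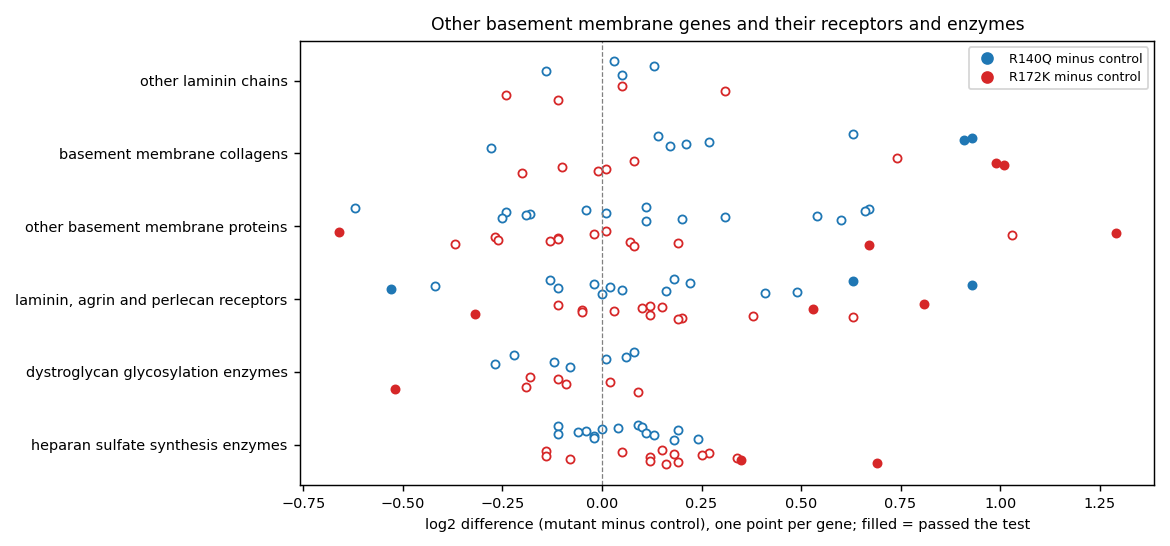
Log2 differences from control (horizontal axis) of the genes of 6 lists that partner the members, with 1 point per gene for R140Q (blue) and R172K (red) hearts and filled points for genes that passed the test. Col4a1 and Col4a2 are the filled pair near 0.9 to 1.0 in both mutants, and the other laminin chains stay between -0.24 and 0.31.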

How the data were processed

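Biotin-labelled cRNA of mouse heart was hybridised to 12 arrays (4 a group). The deposited table holds an intensity per probe set and array, which the authors computed by RMA (named in the submitters' processing notes, with no version). The intensity is linear, as judged from its values, so log2 was taken. Of 34760 probe sets, 21640 had 1 gene symbol in the platform's table, 1321 several and 11799 none, giving 19937 genes, each by its brightest probe set. Groups were taken from the sample titles. All 12 arrays were fitted with limma 3.58.1 in R 4.3.3 (lmFit, eBayes, two-sided, 9 residual and 3.54 prior degrees of freedom), after tests on simulated data. No detection calls were used, so dim values may be background, and RMA hides changes shared by most genes. The number of arrays limits the precision. Pairs of members were compared by exact permutation (scipy 1.17.1), with Benjamini-Hochberg adjustment over 15 tests. Named were all members, up to 4 passing genes of each partner list by p, the first 2 markers of each cell type list described, and the gene most correlated with each member. Itga7, Dag1, Mcam, Abcc9, the other laminin chains and the fibroblast markers beyond Pdgfra and Dcn were named after their values were seen. Members, lists and the alternatives with Myl7 or without 3 arrays were chosen with earlier results of these data known.

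Alternatives covered the arrays fitted, the replicate number as a block, probe set choice, all probe sets, dim genes (below the 25th percentile), median centring, quantile normalization, an intensity trend with robust prior, array weights, an adjusted p under 0.01, Myl7 as a covariate, 3 arrays left out together and each array left out in turn.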

Additional observations from a re-analysis of the deposited data

Results flagged for a closer look

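Lama4 in R172K 4 stood apart from the other R172K arrays. At a log2 intensity of 9.72 it was far above the next array at 8.99 and the lowest at 8.85, and this gap was 0.845 of the range of the group. Of 30 combinations of a member and a group of 4 arrays, it was the 1 flagged, and chance alone flags about 1 in 20. R172K 4 also had the highest summed fibroblast and macrophage markers of all arrays (28553 and 9392) and the lowest cardiomyocyte markers (86016). Their part in the value of Lama4 was not tested.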

How the results depend on the processing

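The 2 decreases in R172K hearts (Lama5, Lamb2) passed in all 24 alternatives, and with array weights Agrn was called lower as well (3 in all; log2 difference -0.38, adjusted p = 0.0208). The count of members higher in R172K hearts, 1 in the fit reported, was 6 with array weights, 4 without the dimmer genes, 4 without control 3, R172K 3 and R140Q 4, and 0 at an adjusted p under 0.01, and ran from 0 to 6 when single arrays were left out (6 without R172K 3, and 0 without control 1, control 2 or R172K 1). The count lower in R140Q hearts, 1 as reported, was 2 with array weights, 2 with the 8 arrays compared, and 0 with Myl7 as a covariate, at an adjusted p under 0.01 or without those 3 arrays, and ran from 1 to 2 over single arrays. Between the mutants array weights gave 1 higher and 1 lower member, and single arrays 0 to 2 higher and 0 to 1 lower. The count higher in R140Q hearts was 0 throughout. The causes of these shifts were not tested.

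The replicate numbers do not pair the arrays: same-numbered arrays' deviations correlated between -0.336 and 0.152 over all genes. With the replicate block the counts were 1 lower and 0 higher in R140Q hearts, 2 lower and 1 higher in R172K hearts and 0 between the mutants, the same members as without it.

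Signs that turned belonged to differences near 0 that did not pass. Between the mutants these were Hspg2 (-0.05 with Myl7 as a covariate, -0.01 with arrays centred on their median, -0.01 without the 3 arrays and -0.04 to 0.09 over single arrays), Lama4 (-0.24 to 0.05 over single arrays) and Lama5 (-0.01 without the 3 arrays and -0.02 to 0.10 over single arrays). Against control, Lama4 in R172K hearts was -0.02 with array weights and -0.11 to 0.18 over single arrays, with -0.11 without R172K 4. Nid2 minus Nid1 in R140Q hearts shifted by 0.05 without the 3 arrays and by -0.06 to 0.06 over single arrays, and between the mutants by -0.12 to 0.00. Agrn minus Hspg2 in R140Q hearts ran from -0.19 to 0.06.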

Other observations

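For each member, the gene outside the list with the most similar profile over the 12 arrays was read off by Pearson correlation, as a description of these arrays and with the group differences left in. Lama5 was most like Hcn4, the pacemaker channel gene (r = 0.95), and Lamb2 most like Reep5, a gene of the endoplasmic reticulum membrane (0.96). Hspg2 was closest to Col6a1, a chain of the type VI collagen that surrounds basement membranes (0.94). Lamc1 went with Plp2 (0.96), Lamb1 with Entpd7 (0.96) and Lama4 with Tmsb10, an actin-binding thymosin gene (0.95). Nid1 was closest to Tmem119 (0.93), Nid2 to Atp8b2 (0.94), Lama2 to Dtx4 (0.93) and Agrn to Dock6 (0.96). The next gene in each ranking was within 0.02 of the first, so the order among the leading genes is not firm.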
